A study of Mus musculus with 6 samples.

Results

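Cyclins, cyclin-dependent kinases (CDKs) and CDK inhibitors were examined in sorted LSK cells of mouse bone marrow. These cells lack lineage markers, carry Sca1 and c-Kit, and include the stem cells of blood and the multipotent progenitors that descend from them. The rule that picks the 32 genes uses their names and roles and no measured value, although results of these data were known when it was set, and 31 of them could be read among the 18193 genes of the arrays. No single-gene probe set was read for Ccnb1, the cyclin B1 gene. LSK cells came from C57BL/6 mice of 6 to 7 weeks, either wild type (WT, 3 arrays, 1 mouse each) or homozygous for IkL, a hypomorphic allele of Ikzf1, the gene of Ikaros (IkL/L, 3 arrays, 2 pooled mice each). The number of mice per sample therefore differs between the groups, and IkL/L mice are prone to T-cell leukaemia later in life. All values are log2 RMA values, in which a step of 1 is a doubling of signal.

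The cell cycle is driven by CDKs, which are active only when bound to a cyclin. D cyclins with Cdk4 and Cdk6 act in G1, cyclin E with Cdk2 at the entry into S phase, cyclin A with Cdk2 in S phase, and cyclin B with Cdk1 at mitosis. Inhibitors of the Cip/Kip family (Cdkn1a to Cdkn1c) bind cyclin-CDK complexes, whereas those of the INK4 family (Cdkn2a to Cdkn2d) bind Cdk4 and Cdk6. In bone marrow, stem cells are mostly quiescent, the multipotent progenitors sorted with them divide more often, and Cdkn1c and Cdkn1b are known for holding stem cells out of the cycle. The comparison of IkL/L with WT asks whether the genes of G1, S and G2/M and the inhibitors differ when Ikaros function is reduced.

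None of the 31 genes differed between IkL/L and WT LSK cells past the threshold. In limma, 0 rose and 0 fell at an adjusted p under 0.05, against 0.989% of all genes, and 0 had an unadjusted p under 0.05, against 11.2% of all genes. The log2 differences, IkL/L minus WT throughout, ran from -0.36 for Ccnd1 to 0.33 for Ccnd3, with a median of 0.04 (all genes: -0.02), and 17 were above 0 and 14 below. The smallest adjusted p was 0.593, that of Cdk5. In 25 of the 31 genes (80.6%) the difference was smaller than the larger of the SDs of the WT and IkL/L arrays. Over all genes that share was 69.2%. On the probe sets read, the 95% intervals of all 31 excluded a 2-fold difference (17489 of the 18193 genes did), and 24 excluded a 1.5-fold difference in either direction (82.9% of all genes did). Of the 41 further probe sets of these genes, 2 had an interval that reached past 2-fold, 1 of Ccnd1 (-1.06 to -0.05) and 1 of Cdkn1b (-0.58 to 1.35). The 7 whose interval reached past 1.5-fold were Ccnd1, Ccnd3, Ccne2, Cdkn1a, Cdkn1c, Cdkn2c and Cdkn3.

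**Figure D1:**
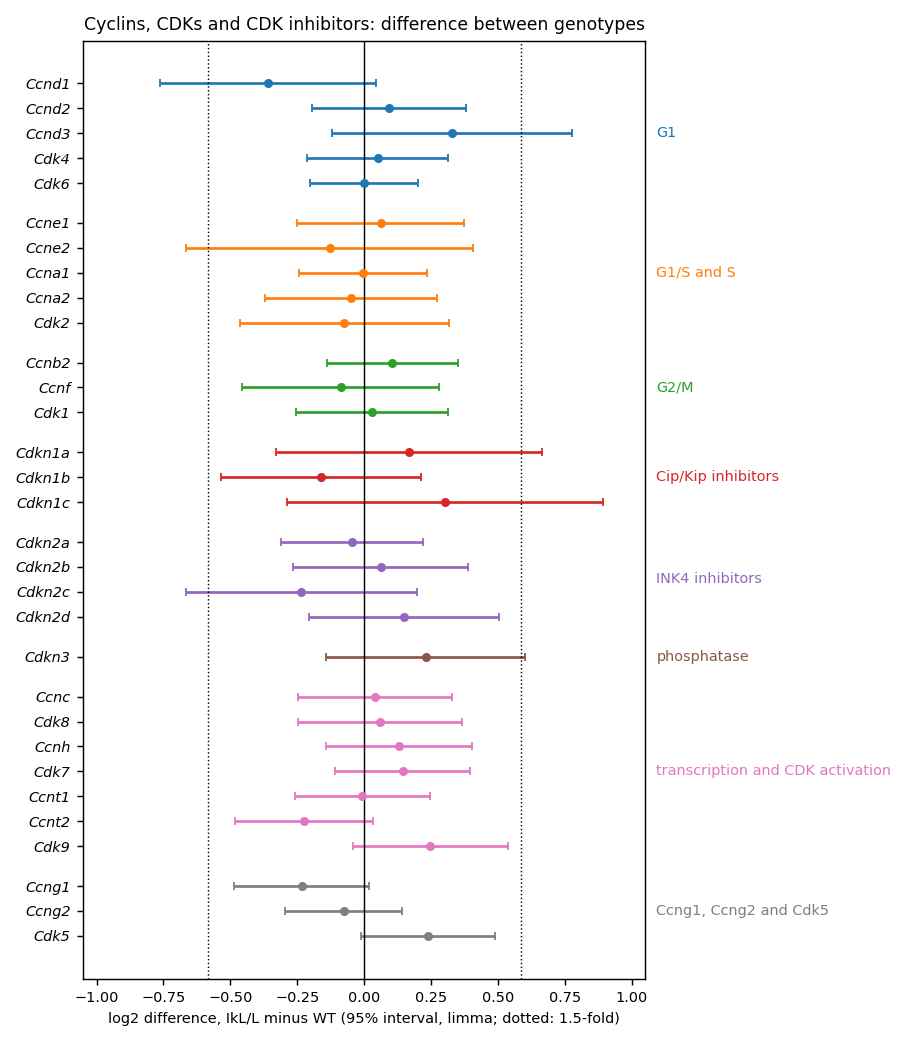
Log2 difference (IkL/L minus WT, horizontal axis) of the 31 genes with its 95% interval from limma, n = 3 arrays per group, coloured by functional group, with dotted lines at a 1.5-fold change. Every interval holds 0 and all lie within a 2-fold change (-1 to 1).

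Ikzf1, the targeted gene, was lower in IkL/L cells (11.53 ± 0.08 in WT and 10.85 ± 0.08 in IkL/L, SD, n = 3, adjusted p = 0.0307 in limma). Pairs of arrays had correlations of 0.986 to 0.995 (45037 probe sets), and array medians lay between 4.79 and 4.88. Of the genes behind the gate, Kit differed by -0.13, and Ly6a, the gene of Sca1, was not read. Cd34, which was not part of the gate, differed by -0.08. The intervals of Kit and Cd34 excluded a 1.5-fold change. Cd3d and Cd3g, which mark T cells, lay under the array medians in both groups, while Cd3e averaged 5.65 in WT and 5.69 in IkL/L. Markers of other lineages did move. The 6 granulocyte and monocyte genes read were all higher (median 1.44) and 3 of them rose. The 6 early lymphoid genes were all lower (median -0.86) and 1 of them, Rag2, fell. Rag2 averaged 5.85 in WT and 4.72 in IkL/L, the latter under the array medians, so the size of its fall is uncertain. Of the megakaryocyte genes 3 of 7 rose (median 0.86), of the B cell genes 2 of 3 (median 1.38) and of the erythroid genes 0 of 6 (median 0.68). Stromal genes were lower as well (0 of 5 passed, median -1.20), with their mean level at 7.09 on WT 1, 6.26 on WT 2, 5.66 on WT 3 and 5.22 to 5.51 on the IkL/L arrays. In such bulk samples, fewer cells of a type and less RNA per cell cannot be told apart, and what the shift in lineage genes adds to or takes from the cell cycle genes was not tested.

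Among the 5 genes of G1, the D cyclins lay farthest from 0 and in opposite directions, and none passed. Ccnd1, cyclin D1, read 7.24, 7.65 and 7.25 on WT 1, 2 and 3 and 6.79, 6.94 and 7.35 on IkL/L 1, 2 and 3. IkL/L 3 lay among the WT values, so the groups overlapped. The difference was -0.36 (95% interval -0.76 to 0.04, adjusted p = 0.621 in limma). Ccnd1 has another pair of probe sets, and both also lay below 0, at -0.56 and -0.55, with unadjusted p of 0.00513 and 0.0364 and adjusted p of 0.237 and 0.516. On the former, the IkL/L values of 6.83, 6.66 and 7.08 all lay under the WT values of 7.46, 7.59 and 7.20. Among the 41 further probe sets of the 31 genes, these were the 2 with an unadjusted p under 0.05, and 0 were called.

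Ccnd3, cyclin D3, which is prominent in lymphoid and erythroid cells, read 9.05, 8.34 and 9.07 on WT 1, 2 and 3 and 9.27, 9.04 and 9.13 on IkL/L 1, 2 and 3. Its difference of 0.33 (-0.12 to 0.78) rested largely on WT 2, and without that array it was 0.09. The dimmer probe sets of Ccnd3 gave 0.03 and 0.04. Ccnd2, cyclin D2, averaged 11.80 ± 0.15 in WT and 11.90 ± 0.17 in IkL/L, and Cdk4 averaged 11.99 ± 0.08 and 12.04 ± 0.17 (SD, n = 3). Cdk6, the partner of D cyclins that is known for setting how fast stem cells leave quiescence, had the narrowest interval of the 31, -0.20 to 0.20 around a difference of 0.00. It read 12.76, 12.69 and 12.73 on the WT arrays and 12.70, 12.72 and 12.75 on the IkL/L arrays, values that interleave. Dimmer probe sets of Cdk6 gave 0.06 (-0.25 to 0.37) and 0.11 (-0.70 to 0.91), the latter reaching past 1.5-fold.

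The genes of S phase entry and S phase overlapped between the groups in all 5 cases. Ccne2, an E cyclin, read 8.15, 8.60 and 8.69 on WT 1, 2 and 3 and 8.67, 7.85 and 8.53 on IkL/L 1, 2 and 3. Its lowest value was that of IkL/L 2, and the difference of -0.13 became 0.12 without it. Ccna2, cyclin A2, read 10.45, 10.91 and 10.85 in WT and 10.66, 10.61 and 10.80 in IkL/L, a difference of -0.05 (-0.37 to 0.27). Cdk2, the kinase of both cyclins, went from 7.85 ± 0.33 to 7.77 ± 0.13, and Ccne1 from 8.82 ± 0.21 to 8.88 ± 0.14 (SD, n = 3). WT 1 was the lowest array in 3 of the 5 genes. Ccna1, the cyclin A of male germ cells, averaged 3.12 in both groups, under the array medians, so that its values may hold little but background.

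On the probe sets read, the 3 measured genes of G2/M lay within 0.11 of 0, with intervals that excluded a 1.5-fold change. A dimmer probe set of Ccnf had a wider interval that did not (-0.67 to 0.42). Cdk1, the kinase of mitotic entry, read 10.40, 10.77 and 10.74 on WT 1, 2 and 3 and 10.64, 10.63 and 10.73 on IkL/L 1, 2 and 3, a difference of 0.03 (-0.25 to 0.31). Ccnb2, cyclin B2, read 10.32, 10.34 and 10.58 in WT and 10.47, 10.57 and 10.52 in IkL/L, a difference of 0.11 (-0.14 to 0.35). Ccnf, cyclin F, a subunit of a ubiquitin ligase, read 9.06, 8.85 and 9.36 in WT and 9.00, 8.80 and 9.21 in IkL/L, a difference of -0.09 (-0.46 to 0.28). In each of these genes the IkL/L values fell inside the span of the WT values, except that Ccnf on IkL/L 2 lay just under its lowest WT value.

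Genes of G2/M are known to share short promoter elements, the cell cycle homology region (CHR, read by the DREAM and MuvB complexes) and CCAAT boxes, and the promoters of the 3 measured genes are shown for that reason. RefSeq windows of assembly GRCm38.p6, from 250 bases before to 50 after the annotated start, were found for 25 of the 32 genes. Printed here are the 135 bases before the start and the 15 that follow, 5′ to 3′ on the strand of the gene, with TTTGAA (CHR) and CCAAT, on either strand, in capitals. All 3 genes lie on the minus strand.
Ccnb2, chr9:70421540-70421689: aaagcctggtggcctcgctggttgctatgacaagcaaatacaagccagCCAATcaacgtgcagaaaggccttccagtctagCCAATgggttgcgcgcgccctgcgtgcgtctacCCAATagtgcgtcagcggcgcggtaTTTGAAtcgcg
Ccnf, chr17:24251395-24251544: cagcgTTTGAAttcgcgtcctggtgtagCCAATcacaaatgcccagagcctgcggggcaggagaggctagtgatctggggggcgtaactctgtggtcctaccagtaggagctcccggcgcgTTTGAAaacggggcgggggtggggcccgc
Cdk1, chr10:69352898-69353047: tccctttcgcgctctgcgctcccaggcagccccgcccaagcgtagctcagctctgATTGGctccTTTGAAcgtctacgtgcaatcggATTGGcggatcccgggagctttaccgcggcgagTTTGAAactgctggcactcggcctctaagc
Each printed stretch holds a CHR close to the start and at least 1 CCAAT box upstream of it. Ccnb1, the unmeasured G2/M gene, also had a window, which held CCAAT but no TTTGAA on either strand. Over the whole windows, TTTGAA or its reverse complement was found in 5 of the 25 genes (Ccnb2, Ccnf, Cdk1, Cdkn3 and Cdkn2b) and in 17.9% of all 32851 windows. CCAAT or its reverse complement was found in 16 of the 25 and in 37.4% of all windows. The E2F letters TTTCGCGC were found in 1 of the 25, Cdk1, where they stand near the left end of the printed stretch in lower case, and in 0.323% of all windows. The 3 motifs did not overlap in the printed stretches. The letters describe the windows and do not show that a factor is bound.

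**Figure D2:**
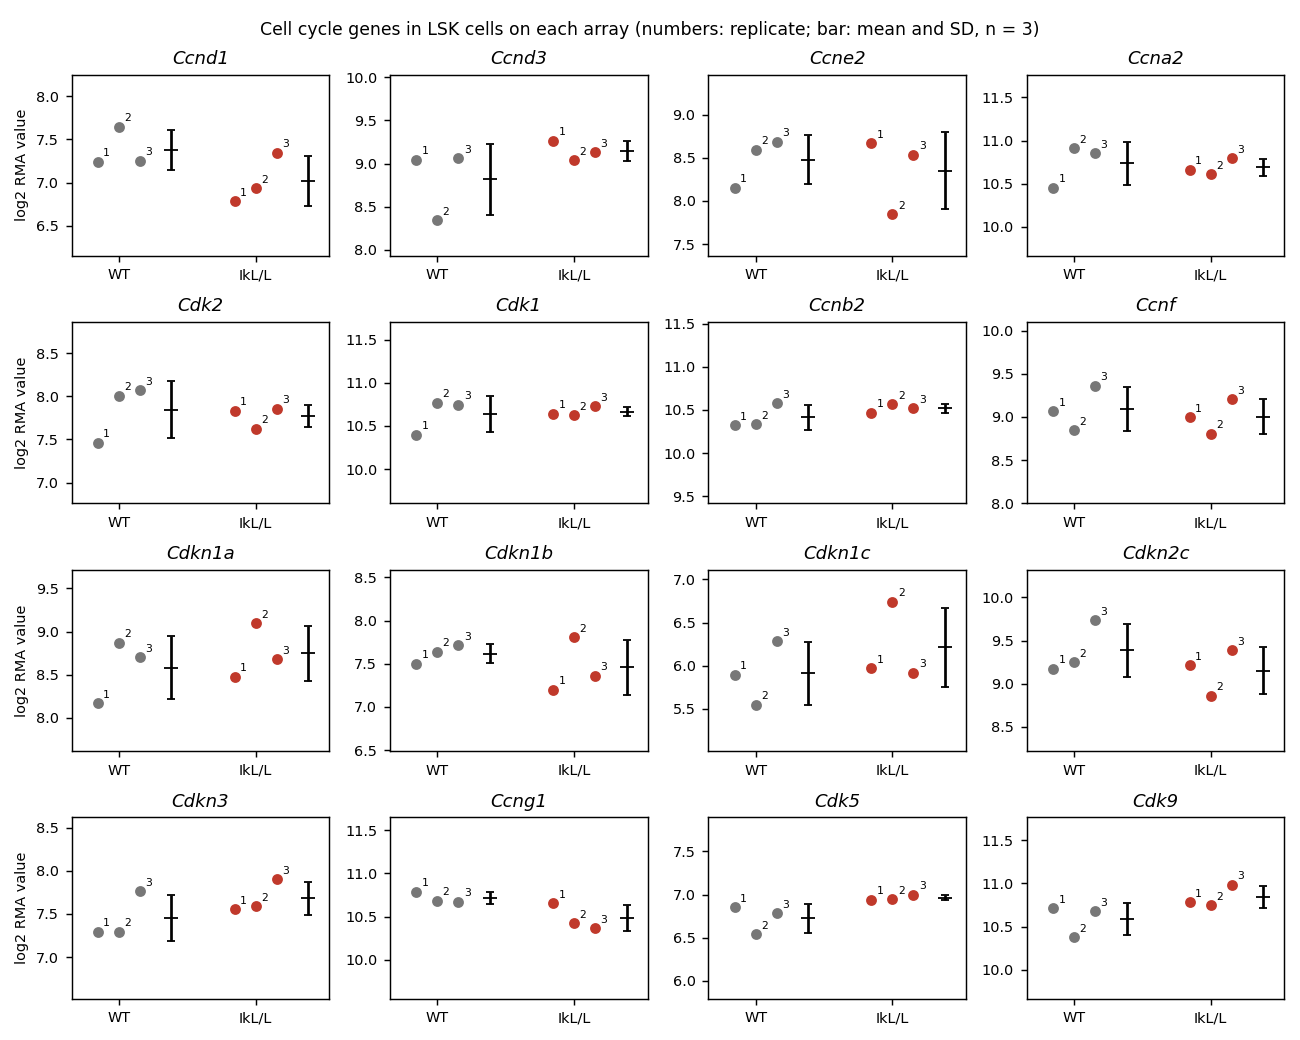
Log2 RMA value (vertical axis, equal in span but not starting at 0) of 16 genes. Points are arrays numbered by replicate, grey for WT and red for IkL/L, and black bars give mean and SD (n = 3). The groups overlap in all but Ccng1, Cdk5 and Cdk9.

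The Cip/Kip inhibitors did not move in 1 direction, and the array IkL/L 2 stood apart. Cdkn1a (p21), an inhibitor induced by p53, read 8.17, 8.87 and 8.70 on WT 1, 2 and 3 and 8.47, 9.10 and 8.68 on IkL/L 1, 2 and 3. Cdkn1b (p27) read 7.50, 7.64 and 7.71 in WT and 7.20, 7.81 and 7.36 in IkL/L. Cdkn1c (p57) read 5.90, 5.55 and 6.28 in WT and 5.97, 6.74 and 5.92 in IkL/L. On the probe sets read, all 3 were highest on IkL/L 2, the array on which their mean lay 0.46 above that of the 6 arrays. Their differences were 0.17, -0.16 and 0.30, with adjusted p of 0.872, 0.835 and 0.800 in limma. Without IkL/L 2, Cdkn1a gave -0.0046, Cdkn1b -0.34 and Cdkn1c 0.04. The same array was the highest for Btg2, an antiproliferative gene (9.24, against 7.00 to 8.29 on the others), and for Nr4a1, an immediate early gene (9.62, against 6.75 to 7.41). The part of whatever sets that array apart in the values of the inhibitors was not tested. A dimmer probe set of Cdkn1b gave 0.38, the opposite sign, and was also highest on IkL/L 2 (6.96). That of Cdkn1a read 6.44, 6.84 and 6.97 on IkL/L 1, 2 and 3, so it was highest on IkL/L 3.

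Of the INK4 inhibitors, Cdkn2c and Cdkn2d were above the array medians and Cdkn2a and Cdkn2b under them. Cdkn2c (p18), which is known for restraining stem cell and lymphoid division, read 9.18, 9.25 and 9.73 on WT 1, 2 and 3 and 9.21, 8.86 and 9.39 on IkL/L 1, 2 and 3, a difference of -0.23 (-0.67 to 0.20). Cdkn2d (p19) gave 0.15 (-0.21 to 0.50). The values of Cdkn2c overlapped, with WT 3 highest and IkL/L 2 lowest. Cdkn2a, which encodes both p16 Ink4a and p19 Arf and is normally silent in young stem cells, averaged 3.48 ± 0.16 in WT and 3.44 ± 0.09 in IkL/L, and Cdkn2b (p15) 4.20 ± 0.24 and 4.26 ± 0.14 (SD, n = 3). No rise of either above background was seen in IkL/L cells. Cdkn3, a phosphatase that acts on CDKs and whose own expression peaks in mitosis, read 7.30, 7.30 and 7.77 in WT and 7.55, 7.59 and 7.90 in IkL/L, a difference of 0.23 (-0.14 to 0.60). WT 3 lay above IkL/L 1 and 2, so the groups overlapped.

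The groups did not overlap in 3 of the 31 genes, with Cdk5 and Cdk9 higher and Ccng1 lower on every IkL/L array. Over all genes, 7.62% lay apart on the higher and 9.59% on the lower side, so 2 and 1 of 31 are below both shares. Ccng1, a cyclin G induced by p53, read 10.79, 10.68 and 10.67 on WT 1, 2 and 3 and 10.65, 10.42 and 10.37 on IkL/L 1, 2 and 3 (-0.23, adjusted p = 0.602), but its dimmer probe sets gave 0.12 and 0.19. Cdk5, a kinase best known from neurons, read 6.85, 6.54 and 6.78 in WT and 6.94, 6.95 and 7.00 in IkL/L (0.24, adjusted p = 0.593). Cdk9, the kinase of the elongation factor P-TEFb, read 10.72, 10.37 and 10.68 in WT and 10.78, 10.75 and 10.98 in IkL/L (0.25, adjusted p = 0.645). In both kinases WT 2 was the lowest array, and without it the differences were 0.15 for Cdk5 and 0.14 for Cdk9. The dimmer probe sets of Cdk5 gave 0.04 and -0.16.

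The other genes that serve transcription and CDK activation stayed within narrow bounds on the probe sets read. There, all 7 intervals of this group excluded a 1.5-fold change. Some dimmer probe sets had intervals that reached past it, such as 1 of Ccnt2 (-0.67 to 0.97), 1 of Ccnc (-0.33 to 0.76) and 1 of Cdk7 (-0.10 to 0.60). The cyclins of P-TEFb, Ccnt1 and Ccnt2, gave -0.01 and -0.22 (adjusted p = 0.992 and 0.637 in limma). Cdk7 and Ccnh, which together activate the cell cycle CDKs and form part of TFIIH, gave 0.14 and 0.13. The Ccnh probe sets split, however, with 1 dimmer probe set higher on all IkL/L arrays (0.25) and another lower on all (-0.19), so the gene has no single direction. Cdk8 and Ccnc, of the Mediator kinase module, gave 0.06 and 0.04. Ccng2, a cyclin G raised in cells that leave the cycle, gave -0.08 (-0.29 to 0.14).

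For the genes of division, single arrays of 1 genotype lay apart while the means of the genotypes were close. For 24 genes of mitosis, among them Mki67, Top2a, Plk1 and the Aurora kinases, the mean deviation from the average of the 6 arrays was -0.09, -0.11 and 0.20 on WT 1, 2 and 3 and 0.00, -0.17 and 0.17 on IkL/L 1, 2 and 3. WT 3 was the highest array for 9 of these genes and IkL/L 3 for 11, while WT 2 and IkL/L 2 were the lowest for 9 and 10. The means of WT and IkL/L differed by -0.0003, and the span was 0.31 between the WT arrays and 0.34 between the IkL/L arrays. These are unlike measures, because a span of 3 single arrays tends to exceed a difference between means of 3 arrays. The G2/M genes followed the same order at the top, with 0.17 on WT 3 and 0.10 on IkL/L 3. No pairing by replicate number showed over all probe sets, but a pairing limited to the genes of division was not tested. The cause of this spread was not tested either.

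**Figure D3:**
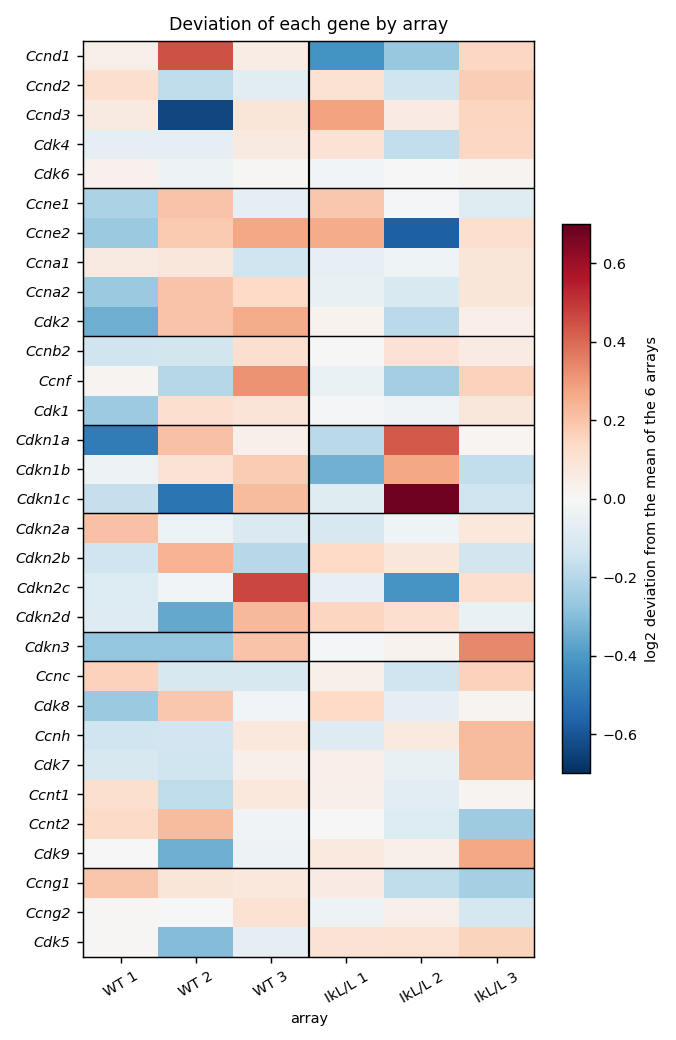
Log2 deviation of each of the 31 genes (rows, in the order of the functional groups, which lines separate) on each array (columns) from its mean over the 6 arrays, red above and blue below. The sides of the vertical line, WT on the left and IkL/L on the right, show no block of 1 colour, and the Cip/Kip inhibitors are red on IkL/L 2.

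In the other lists of the cell cycle pathway, few genes passed. Of the 24 mitosis genes, 0 passed in limma and 0 had an unadjusted p under 0.05, with a median of -0.02 and a range from -0.24 for Kif23 (adjusted p = 0.571) to 0.23 for Plk1. Mki67, the proliferation antigen, gave 0.03 (-0.30 to 0.36), Cenpa 0.19, Hmmr -0.21 and Top2a -0.19. Of 12 genes that phosphorylate, assist or degrade cyclins, CDKs and inhibitors, 0 passed and 1 had an unadjusted p under 0.05. That gene was Wee1, the kinase that holds Cdk1 inactive, at 10.73, 10.87 and 10.77 on WT 1, 2 and 3 and 10.57, 10.38 and 10.48 on IkL/L 1, 2 and 3 (-0.31, adjusted p = 0.356). In the same list Fbxw7, the adaptor that targets cyclin E for degradation, gave -0.17, Cdc25b -0.26 and Fzr1 0.36, and none of them passed.

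Of 13 E2F and pocket protein genes, 0 passed in limma, 0 had an unadjusted p under 0.05 and 10 were below 0, with a median of -0.15. E2f6, a repressive E2F, gave -0.24 (adjusted p = 0.596), E2f5 -0.29, Rbl1 (p107) -0.30 and Rbl2 (p130), the pocket protein of quiescent cells, -0.14 (-0.34 to 0.06). The values of E2f6, E2f5 and Rbl2 lay apart on the lower side (23.1% of this list, against 9.59% of all genes). Of 7 genes tied to the quiescence of stem cells, 0 passed and 1, Ndn, had an unadjusted p under 0.05. Ndn read 8.44, 8.29 and 8.21 on the WT arrays and 7.47, 8.26 and 6.47 on the IkL/L arrays (-0.91, adjusted p = 0.548), so that its spread was wide in the mutant. Gfi1, Foxo3 and Nr4a1 gave 0.19, -0.19 and 0.75.

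The p53 targets held the 1 gene of these lists that passed. Pmaip1 (Noxa), a p53 target that promotes apoptosis, rose by 1.44 on the log2 scale (adjusted p = 0.0191 in limma). It read 3.31, 3.80 and 3.96 on WT 1, 2 and 3 and 4.99, 5.04 and 5.38 on IkL/L 1, 2 and 3, and the WT mean of 3.69 lay under the array medians, so that the size of the rise is uncertain. Of the 11 p53 targets read, no other passed and 8 were below 0. An unadjusted p under 0.05 in limma was found for 3 of the 11 (1 higher, Pmaip1, and 2 lower, Sesn1 and Phlda3), against 11.2% of all genes. Sesn1, a stress-induced sestrin, gave -0.52 (adjusted p = 0.173 in limma), Phlda3 -0.35 (adjusted p = 0.314) and Btg2 0.86 (adjusted p = 0.567).

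**Figure D4:**
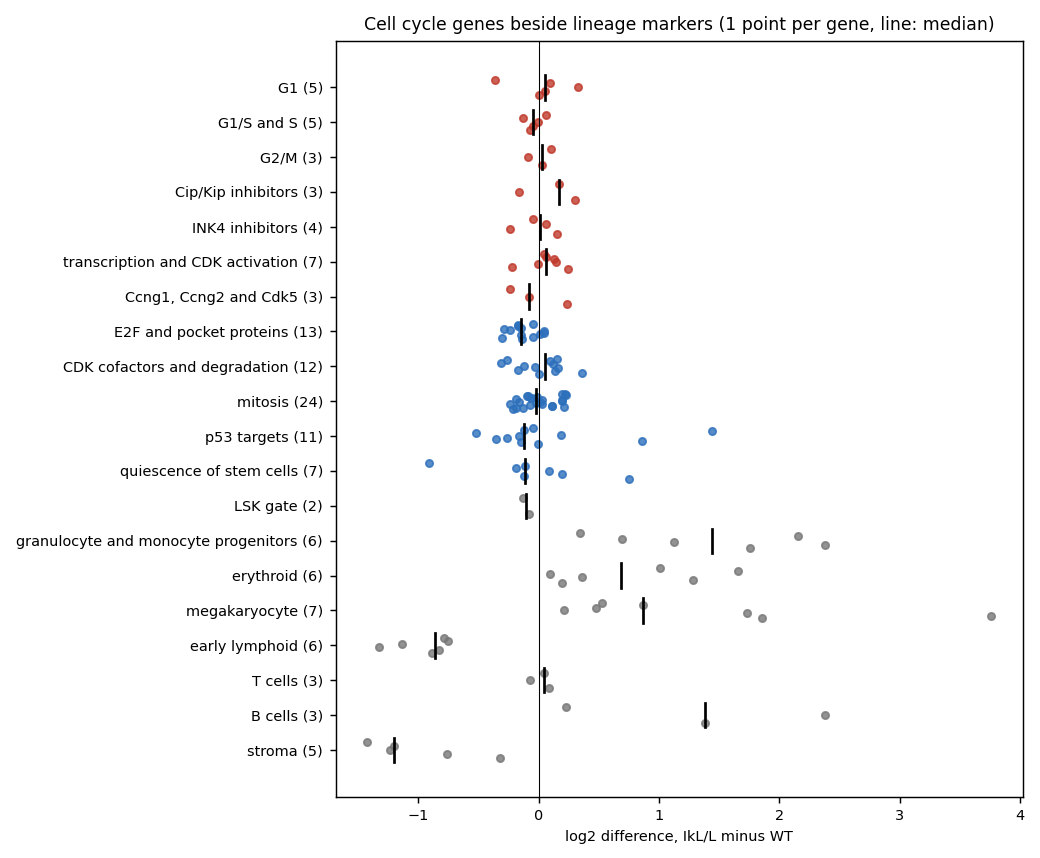
Log2 difference along the horizontal axis, with IkL/L above WT to the right and 1 point per gene, for the cyclin, CDK and inhibitor groups (red), other cell cycle lists (blue) and markers of cell types (grey), with a black line at the median and the number of genes read in brackets; Cdkn3 is not drawn. The red groups lie between -0.36 and 0.33, while the medians of the granulocyte and monocyte, megakaryocyte and B cell markers lie at 1.44, 0.86 and 1.38 and that of the early lymphoid markers at -0.86.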

How the data were processed

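Total RNA of sorted LSK cells (100 ng, 2-cycle labelling per the labels) was hybridised to Affymetrix mouse expression arrays. Values are those of the authors, deposited on a log2 scale after RMA in R 2.8, which corrects background, brings all arrays to a common distribution and gives no detection call. The study's methods describe a joint normalization with thymocyte arrays, and a change in total RNA per cell is not visible after it. The platform annotation gave 1 gene for 34945 probe sets, several for 932 and none listed for 9160. Symbols were updated by Entrez number (34741 matched, RefSeq GRCm38.p6), and each gene was read from its single-gene probe set with the highest mean.

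IkL/L and WT were compared with limma 3.58.1 in R 4.3.3, by lmFit and eBayes in a two-sided test on genotype alone. P-values were adjusted by Benjamini-Hochberg across the 45037 probe sets, with calls at 0.05. Intervals are 95%, per gene and unadjusted. The number of arrays limits the precision, and p-values measure the spread between 3 samples per group. On simulated arrays (45037 probe sets), 20% of 50 probe sets changed 1.5-fold and 100% of 50 changed 2-fold were recovered, and 6.43% of calls were false. The simulated noise was normal and independent, and each variance was averaged with a common value. The noisiest probe sets were thus quieter than in the data, so these shares do not carry over to the real arrays. There, differences past 2-fold could go uncalled, such as Klf1 (1.01, adjusted p = 0.143 in limma) and Il7r (-1.33, adjusted p = 0.241). The 32 genes are defined by name and role, but they and the lists were chosen with earlier results of these data known. All 32 genes are named, with the 4 genes of smallest p from each other cell cycle list and the markers needed to give a list's level. Mki67 and Plk1, with the Aurora kinases, were added after their values were seen. Alternatives were a second quantile normalization, median centring, filters on dim probe sets, trended robust moderation, array weights, other probe set choices, the replicate block and leaving out each array.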

Additional observations from a re-analysis of the deposited data

How the results depend on the processing

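The call of 0 of the 31 genes in either direction was the same in all 15 alternatives, with 0 to 2 genes at an unadjusted p under 0.05 and a smallest adjusted p of 0.266 (Ccnd1, mean of its probe sets). The sign was kept in all of them by 14 genes, Ccnd1, Ccnd3, Ccnb2, Cdkn1c, Cdkn2c and Cdkn3 among them. The 180 genes called over the whole array became 106 with the replicate number as a block, in which 0 of the 31 passed, 317 with probe sets of a gene averaged, and 45 to 168 when 1 array was left out. Same-numbered arrays correlated at 0.0084, -0.112 and 0.0789 in their deviations from the group means, and differently numbered ones at -0.129 to 0.120. No pairing by number thus showed over all probe sets, and a pairing limited to fewer genes was not tested. With probe sets averaged, Cdk6 gave 0.057, Cdkn1b 0.11, Ccng1 0.026 and the median of Ccng1, Ccng2 and Cdk5 0.026. Array weights gave 0.020 for Ccne2, 0.012 for Ccna2 and 0.025 for Cdk2. Median centring gave 0.017 for Cdk6, 0.013 for Ccna1 and 0.010 for Ccnt1, and a second quantile normalization 0.019 for Ccna1. With 1 array left out, the median of the G1 group ran from -0.0086 to 0.15 and that of transcription and CDK activation from 0.033 to 0.12. Single genes that changed sign ran from -0.0086 to 0.15 (Cdk4), -0.020 to 0.016 (Cdk6), -0.035 to 0.18 (Ccne1), -0.29 to 0.12 (Ccne2), -0.074 to 0.035 (Ccna1), -0.19 to 0.037 (Ccna2), -0.27 to 0.036 (Cdk2), -0.21 to 0.049 (Ccnf), -0.091 to 0.095 (Cdk1), -0.035 to 0.31 (Cdkn1a), -0.11 to 0.048 (Cdkn2a), -0.019 to 0.20 (Cdkn2b), -0.031 to 0.13 (Ccnc), -0.055 to 0.17 (Cdk8) and -0.10 to 0.047 (Ccnt1). The cause of these changes was not tested. Signals under the array medians limit what can be said of Ccna1, Cdkn2a and Cdkn2b.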
